A study of Mus musculus with 4 samples.

Results

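The matrix metalloproteases (Mmps), the membrane proteases of the ADAM family, the secreted ADAMTS proteases and their inhibitors, the TIMPs, were followed in fibroblasts with high and low AF357425. The genes were taken by symbol from the count tables, and 73 of 55536 annotated genes matched: 23 Mmps, 27 Adam genes, 19 Adamts genes and 4 Timps. AF357425 is a small nucleolar RNA (snoRNA) of the C/D box class, encoded in the Dlk1-Dio3 imprinted region, and snoRNAs of this class guide fibrillarin, the methyltransferase that modifies ribose in ribosomal and other RNAs. The cells were primary fibroblasts from ear clippings of C57BL/6 mice, and mouse ages were not given in the sources used here. All groups received KN93, which blocks the kinase CaMKII and was given to synchronise the cell cycle, for 48 h and were then transfected for 24 h. The 4 groups were AF357425-High pulldown and AF357425-Low pulldown, in which RNA bound to fibrillarin was captured with an antibody and depleted of ribosomal RNA, and AF357425-High whole-cell and AF357425-Low whole-cell, in which RNA came from the lysate.

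Each group had 1 library, so no difference had a replicate check and no test between groups was possible. Every interval given here is a 95% interval that covers counting error only. The labels disagreed on the treatment: sample characteristics named overexpression for the High state and inhibition for the Low state, whereas the protocol named gapmers (antisense oligonucleotides that direct RNA cleavage) against AF357425 or a scrambled control. The states are called here by the sample titles, and AF357425 itself was listed at 0 reads in all 4 libraries, so the labels could not be checked on it. The sources used here do not say which libraries share a culture or a mouse.

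Gene reads numbered 25857770 in the High pulldown, 27832061 in the Low pulldown, 22082565 in the High whole-cell library and 21693030 in the Low whole-cell library. The mitochondrial ribosomal RNAs took 63.4% and 59.8% of the High and Low pulldowns, against 0.0926% and 0.0583% of the High and Low whole-cell libraries. The listed fibroblast markers, all 9 with reads, summed to 7356 and 8236 CPM (counts per 1000000 gene reads) in High and Low whole-cell RNA. Marker sums of macrophages and other leukocytes were 8.47 and 8.21 CPM with Adgre1 at 0, those of endothelium 7.70 and 8.11 CPM, and those of keratinocytes 0.272 and 0.415 CPM with Krt14 at 0. Chondrocyte markers summed to 288 and 203 CPM in High and Low whole-cell RNA, with Col11a2 and Matn1 at 0. The part of any other cell type in the results was not tested.

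Mmps are zinc-dependent proteases that cleave collagens, proteoglycans and other matrix proteins, and most are made as inactive precursors. ADAMs sit in the cell membrane and release the outer parts of growth factors, cytokine precursors and receptors, although several members lack a working catalytic site. ADAMTS proteases are secreted, and several of them trim procollagens or cut proteoglycans such as aggrecan and versican. TIMPs bind the active site of these enzymes, and dermal fibroblasts are a known source of Timp1, Timp2, Timp3, Mmp2 and Mmp14, with Mmp3 known as a gene that growth factors and inflammatory signals induce.

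Promoters are shown for 5 genes whose values recur below: the stromelysins Mmp3 and Mmp10 and the abundant inhibitors Timp1, Timp2 and Timp3. Mmp3 and Mmp10 lie in the same cluster on chromosome 9. Both had fewer reads in AF357425-High than in AF357425-Low whole-cell RNA, although Mmp10 stayed under 1 CPM on average. Each window runs 5′ to 3′ on the gene's strand over 300 bases, from 250 before the RefSeq start to 50 after it, in GRCm38.p6. Capitals mark TGAGTCA, the binding motif of AP-1, TATAAA, the TATA box, and GGGCGG or its complement CCGCCC, the GC box bound by Sp1-type factors, each searched on both strands. The windows lie at chr9:7445572-7445871 on the plus strand for Mmp3, chr9:7502092-7502391 on the plus strand for Mmp10, chrX:20869916-20870215 on the plus strand for Timp1, chr11:118355362-118355661 on the minus strand for Timp2 and chr10:86300162-86300461 on the plus strand for Timp3.
Mmp3: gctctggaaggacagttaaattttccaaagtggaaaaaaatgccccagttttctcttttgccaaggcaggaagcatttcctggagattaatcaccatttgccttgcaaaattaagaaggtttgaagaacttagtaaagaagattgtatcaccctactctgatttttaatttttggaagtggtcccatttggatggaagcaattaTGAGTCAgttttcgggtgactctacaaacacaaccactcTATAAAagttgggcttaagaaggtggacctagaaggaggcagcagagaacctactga
Mmp10: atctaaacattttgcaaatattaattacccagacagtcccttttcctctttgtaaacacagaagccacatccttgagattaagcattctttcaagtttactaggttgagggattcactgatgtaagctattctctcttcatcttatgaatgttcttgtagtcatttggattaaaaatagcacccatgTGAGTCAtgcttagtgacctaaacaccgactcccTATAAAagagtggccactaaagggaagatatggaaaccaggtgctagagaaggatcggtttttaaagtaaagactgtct
Timp1: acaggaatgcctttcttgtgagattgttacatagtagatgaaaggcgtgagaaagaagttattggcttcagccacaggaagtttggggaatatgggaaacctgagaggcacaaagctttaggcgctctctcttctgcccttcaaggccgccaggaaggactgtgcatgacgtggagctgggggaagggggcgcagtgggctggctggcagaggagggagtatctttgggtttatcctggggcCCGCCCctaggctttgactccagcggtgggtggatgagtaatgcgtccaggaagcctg
Timp2: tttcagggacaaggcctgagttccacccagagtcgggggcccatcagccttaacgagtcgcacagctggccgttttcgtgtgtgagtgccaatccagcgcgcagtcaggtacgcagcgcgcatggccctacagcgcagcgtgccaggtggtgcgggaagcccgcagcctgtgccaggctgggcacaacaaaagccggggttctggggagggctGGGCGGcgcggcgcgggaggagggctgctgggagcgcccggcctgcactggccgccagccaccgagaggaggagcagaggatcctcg
Timp3: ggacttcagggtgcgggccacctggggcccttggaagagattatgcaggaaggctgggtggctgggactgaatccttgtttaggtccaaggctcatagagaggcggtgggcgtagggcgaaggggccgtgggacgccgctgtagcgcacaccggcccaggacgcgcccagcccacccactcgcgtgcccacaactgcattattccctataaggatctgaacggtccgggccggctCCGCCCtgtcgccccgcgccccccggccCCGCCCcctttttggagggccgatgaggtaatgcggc

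In the stromelysin windows the AP-1 motif began 46 bases upstream of the start in Mmp3 and 63 bases upstream in Mmp10. The TATA box began 7 bases upstream in Mmp3 and 29 bases upstream in Mmp10. The Timp windows held neither motif and instead held GC boxes, with 1 each in Timp1 and Timp2 and 2 in Timp3. The share of G and C was 40% in Mmp3 and 37.7% in Mmp10, against 55%, 68.7% and 67% in Timp1, Timp2 and Timp3 and a median of 52.7% over 32851 RefSeq windows of this length. Of the 73 genes, 44 had a window. TGAGTCA was in 9 of these 44, against 5.20% of all windows. TATAAA was in 12 of 44, against 13.6% of all windows, and GGGCGG in 23 of 44, against 35.7%.

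TGAGTCA and TATAAA stood together in 0.941% of all windows and in 8 windows of the protease genes. Of these 8, 7 belonged to the cluster of 10 Mmp genes at chr9:7272514-7699585, namely Mmp1a, Mmp1b, Mmp3, Mmp7, Mmp10, Mmp12 and Mmp13. Mmp8, Mmp20 and Mmp27 of the same cluster lacked the pair, and the eighth window was that of Adam29 elsewhere in the genome. These are neighbouring copies of related genes, so their windows are not independent, and a match is a description and not a site of binding.

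Reads of the family were spread very unevenly. It took 3008 and 3290 CPM in the High and Low pulldowns, and 9351 and 10525 CPM in High and Low whole-cell RNA. The Timps held 70.8% and 65.1% of those reads in the High and Low pulldowns and 71.8% and 74.4% in High and Low whole-cell RNA. No reads in any library were found for 11 genes: Adam7, Adam20, Adam24, Adam29, Adam34, Adam39, Adamts13, Mmp1a, Mmp1b, Mmp7 and Mmp20. An absence of reads allowed a level of up to 3 reads, or 0.116 and 0.108 CPM for the High and Low pulldowns and 0.136 and 0.138 CPM for High and Low whole-cell RNA. Genes whose mean reached 1 CPM across the libraries of a comparison are called measured, which held for 29 members in the pulldown and 38 in whole-cell RNA. A further 24 had reads but fell below that level in whole-cell RNA. Transcript lengths were not at hand, so CPM values are shares of reads, and levels of different genes are not compared per length.

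**Figure D1:**
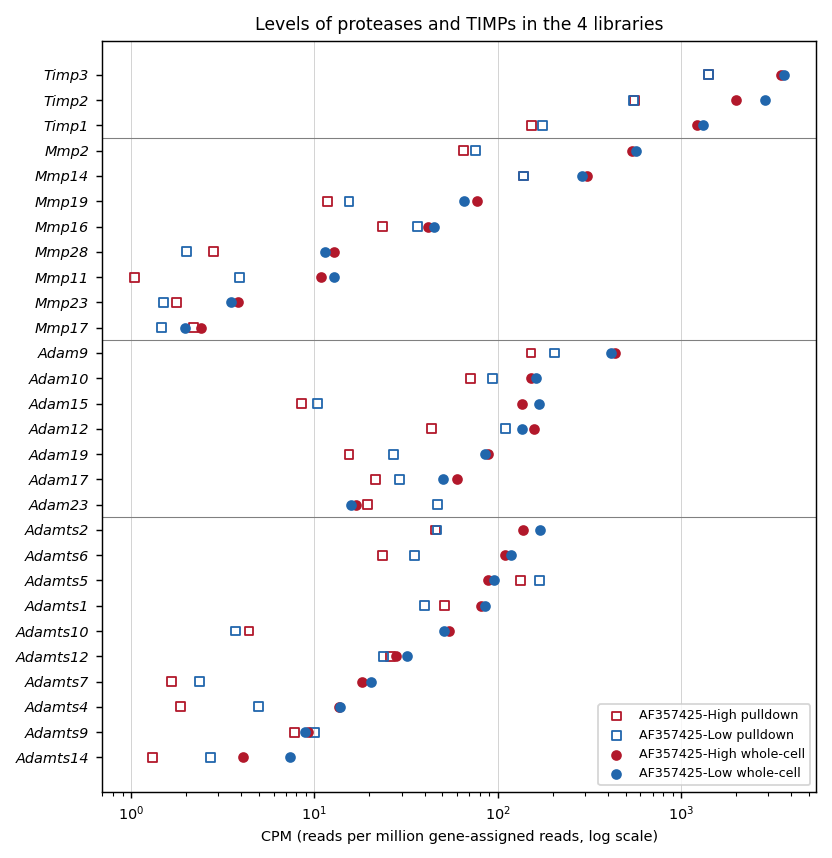
Levels of the 28 members measured in both kinds of library, in CPM on a log axis. Squares are pulldowns and circles whole-cell RNA, red is AF357425-High and blue AF357425-Low, 1 library per group. Timp3 is at 1417 and 1414 CPM in the High and Low pulldowns and 3502 and 3647 CPM in High and Low whole-cell RNA, and the squares of most genes lie left of their circles.

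In whole-cell RNA no member lay clear of a 2-fold difference between AF357425-High and AF357425-Low. Timp1, Timp2, Timp3, Mmp2 and Adamts2 had log2 ratios between -0.59 and -0.12, and Mmp14 was at 0.03. Of 38 measured members, 0 had an interval wholly beyond 2-fold in either direction, against 0.111% of 13519 genes beyond it upwards and 0.133% downwards. With TMM scaling (trimmed mean of M-values), the median log2 ratio of High over Low was -0.14 for members and -0.01 for all measured genes. The interval lay above 0 for 4 members, against 18% of genes, and below 0 for 18, against 20.5% of genes. Members below 0 numbered 14 by library totals, 18 by DESeq2 size factors and 16 by totals without the 20 most abundant genes, against 14%, 17.8% and 16.9% of genes. These are bulk libraries, in which fewer cells of a type and less RNA per cell cannot be told apart.

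Timp1, an inhibitor that is also a growth factor for several cell types, had 27059 reads in High whole-cell RNA and 28737 reads in Low whole-cell RNA, a log2 ratio of -0.18 (-0.20 to -0.15). Timp2, which both inhibits Mmp2 and takes part in its activation by Mmp14, had 43955 and 62053 reads, and its ratio of -0.59 (-0.61 to -0.57) was the lowest of the Timps. Timp3, which binds to the matrix and inhibits Adam17 and the aggrecanases, had 77335 and 79106 reads and a ratio of -0.12 (-0.14 to -0.11). All of these ratios stayed below 0 under every scaling tried. Timp4 had 0 reads in High and 1 read in Low whole-cell RNA. Timp1, Timp2 and Timp3 lie within or across other annotated genes, Syn1, Cep295nl and Syn3, and the strand setting of the counting was not given in the sources used here. Syn1 had 65 and 108 reads, Syn3 22 and 41 and Cep295nl 887 and 928 in High and Low whole-cell RNA, all far fewer than the inhibitor it overlaps.

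Among the Mmps, Mmp2 (gelatinase A) had 538 CPM in High and 572 CPM in Low whole-cell RNA, a log2 ratio of -0.15 (-0.19 to -0.12). Its activator Mmp14, the main membrane-type collagenase, had 308 and 288 CPM and a ratio of 0.03 (-0.02 to 0.08). Both enzymes had similar levels in the High and Low states. The stromelysins were further apart. Mmp3, which cleaves proteoglycans and activates other Mmps, had 242 reads in High and 448 reads in Low whole-cell RNA, a ratio of -0.98 (-1.21 to -0.75). Mmp10, a close paralog of Mmp3, had 11 and 26 reads, a ratio of -1.33 (-2.50 to -0.27), but stayed under 1 CPM on average. Reads of closely related copies can be shared or lost in counting, so the split between these paralogs is uncertain. Mmp11, a stromelysin with little matrix-degrading activity, had 241 and 279 reads and a ratio of -0.30 (-0.56 to -0.05).

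Over the whole chromosome 9 cluster, the 10 Mmp genes summed to 259 reads in High and 482 reads in Low whole-cell RNA, nearly all from Mmp3. The collagenases in it were close to absent: Mmp13 had 5 and 4 reads, Mmp8 0 and 2 reads, and Mmp1a and Mmp1b 0 reads. Mmp24, a membrane-type Mmp best known from the nervous system, had the lowest ratio of the measured members, -1.51 (-2.60 to -0.51). It had 12 reads in High and 32 reads in Low whole-cell RNA, or 0.543 and 1.48 CPM. It thus reached the mean of 1 CPM only through the Low library, which favours a low ratio, and its rank carries little weight. Its span overlaps BC029722, which had 1883 and 1534 reads. Mmp19 had 77.0 and 65.6 CPM in High and Low whole-cell RNA and a ratio of 0.17 (0.06 to 0.27), the 1 Mmp whose interval lay above 0 under TMM. It overlaps Tmem198b, with 588 and 589 reads. Mmp17, a membrane-type Mmp attached by a lipid anchor, had 53 and 43 reads and a ratio of 0.21 (-0.40 to 0.83).

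Ratios of the sheddases lay on both sides of 0. Adam9 had 439 CPM in High and 416 CPM in Low whole-cell RNA, a log2 ratio of 0.01 (-0.03 to 0.05). Adam10, the sheddase of Notch and cadherins, had 151 and 162 CPM and a ratio of -0.17 (-0.24 to -0.10). Adam17, which releases TNF and ligands of the EGF receptor, had 60.5 and 50.2 CPM and a ratio of 0.20 (0.09 to 0.32). Adam12, an ADAM of mesenchymal cells once named meltrin alpha, had 158 and 136 CPM and a ratio of 0.15 (0.08 to 0.22), whereas Adam15 had 137 and 169 CPM and a ratio of -0.37 (-0.44 to -0.30). Of 13 measured ADAMs, 8 ratios were positive under TMM and 9 under the other scalings, with a TMM median of 0.02. Over all measured genes 48.2% were positive under TMM and 52.8% to 60.3% under the other scalings. At the low end, Adam11, a catalytically inactive ADAM of neurons, had 87 and 57 reads and a ratio of 0.52 (0.02 to 1.03). Adam33 had 24 and 34 reads and a ratio of -0.59 (-1.41 to 0.20), and Adam32 had 51 and 39 reads and a ratio of 0.30 (-0.33 to 0.94).

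Of 11 measured ADAMTS proteases, 0 were called, and 10 ratios were below 0 under TMM and 9 under the other scalings. Over all measured genes 51.8% of ratios were below 0 under TMM and 39.7% to 47.2% under the other scalings. The ADAMTS median was -0.17 under TMM, and its difference from the ADAMs was not tested. The procollagen N-proteinase Adamts2, which trims fibrillar procollagens, had 138 CPM in High and 170 CPM in Low whole-cell RNA, a ratio of -0.37 (-0.44 to -0.30). Its relative Adamts14 had 4.08 and 7.42 CPM and a ratio of -0.93 (-1.32 to -0.55). The aggrecanase Adamts5 had 88.3 and 95.3 CPM and a ratio of -0.17 (-0.26 to -0.08), and Adamts1, which cuts versican, had 81.0 and 85.5 CPM and a ratio of -0.14 (-0.24 to -0.05). Adamts6, linked to fibrillin microfibrils, had 109 and 118 CPM and a ratio of -0.18 (-0.26 to -0.10). Adamts10, another fibrillin-associated member, had 54.3 and 50.8 CPM and the only positive ratio under TMM, 0.03 (-0.09 to 0.15). The other 14 measured members, among them Adam8, Adam19, Adamts12 and Mmp16, had ratios between -0.58 (Adam22) and 0.10 (Adam8).

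**Figure D2:**
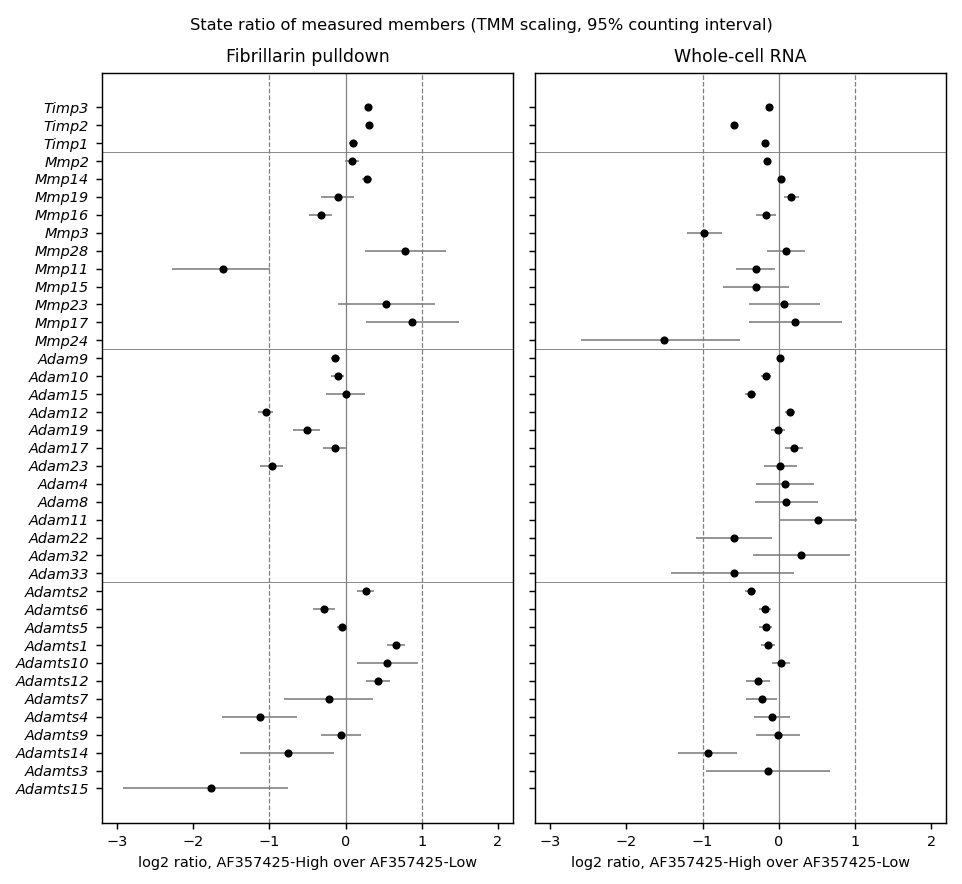
Log2 ratios of AF357425-High over AF357425-Low per member with 95% counting intervals, for the fibrillarin pulldown (left) and whole-cell RNA (right), after TMM scaling. Dashed lines mark 2-fold. No interval lies wholly beyond them, and Adam12 is at -1.05 in the pulldown and 0.15 in whole-cell RNA.

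In the pulldown the spread was wider and again no member passed 2-fold with its whole interval: 0 of 29 measured members, against 3.43% of 10736 genes beyond it upwards and 2.9% downwards. The median log2 ratio of High over Low was -0.06 for members and -0.01 for all measured genes. The interval lay above 0 for 10 members, against 31.5% of genes, and below 0 for 11, against 32.5% of genes. Directions in the pulldown depended on the scaling more than in whole-cell RNA: scaling by library totals moved every ratio by -0.29, which put 8 ratios above and 21 below 0. By library totals the whole interval lay above 0 for 1 member, against 16% of genes, and below 0 for 18, against 53.3%. By library totals 4 members were more than 2-fold lower with the whole interval, Adam12, Adam23, Adamts15 and Mmp11, against 5.66% of genes.

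The lowest ratios in the pulldown were those of 2 proteoglycanases, a stromelysin and an ADAM. Adamts15, a proteoglycanase, had 10 reads in the High and 45 reads in the Low pulldown, a ratio of -1.77 (-2.92 to -0.76). At 0.387 and 1.62 CPM it reached the mean of 1 CPM only through the Low pulldown, which favours a low ratio. Mmp11 had 27 and 109 reads, a ratio of -1.61 (-2.28 to -0.99), and lay wholly past 2-fold under each of the other scalings (-1.91 by library totals). Adamts4, an aggrecanase related to Adamts5, had 48 and 138 reads and a ratio of -1.12 (-1.63 to -0.64). Adam12 had 1124 and 3074 reads, which are 43.5 CPM in the High and 110 CPM in the Low pulldown, and a ratio of -1.05 (-1.15 to -0.95). By library totals it was -1.35 and wholly past 2-fold. Adam12 overlaps several annotated non-coding genes.

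Adam23, a catalytically inactive ADAM that binds Lgi proteins in neurons, behaved much like Adam12 in size: 506 reads in the High and 1308 reads in the Low pulldown, a ratio of -0.97 (-1.12 to -0.82). Adam19 had 15.5 and 27.1 CPM and a ratio of -0.51 (-0.69 to -0.33). Adam9 had 152 and 205 CPM and a ratio of -0.13 (-0.19 to -0.08), Adam10 70.8 and 93.3 CPM and a ratio of -0.10 (-0.19 to -0.02). Of the 7 ADAMs measured in the pulldown, 6 ratios were below 0 under TMM and 7 under the other scalings. Over all measured genes 50.8% were below 0 under TMM, 51.8% with DESeq2 size factors, 56.3% by totals without the 20 most abundant genes and 70.4% by library totals. The exception under TMM was Adam15, with 220 and 290 reads and a ratio of 0.00 (-0.26 to 0.26).

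The highest ratios in the pulldown belonged to Mmp17, Mmp28, Adamts1 and Adamts10. Adamts1 had 51.4 CPM in the High and 39.8 CPM in the Low pulldown, a ratio of 0.66 (0.54 to 0.78) that was 0.37 by library totals. It thus had a larger share of reads in High than in Low pulldown RNA. In whole-cell RNA its ratio was -0.14 under TMM and -0.08 by library totals. By library totals its intervals in pulldown and whole-cell RNA no longer lay on opposite sides of 0. Mmp17 had 57 and 41 reads and a ratio of 0.88 (0.27 to 1.49). Mmp28, an epilysin expressed in skin, had 73 and 56 reads and a ratio of 0.78 (0.26 to 1.31), and Adamts10 had 114 and 103 reads and a ratio of 0.55 (0.15 to 0.95). Adamts2, the procollagen N-proteinase, had 45.8 and 46.8 CPM and a ratio of 0.26 (0.15 to 0.38) that was -0.03 by library totals, while Adamts14 had 34 and 76 reads and a ratio of -0.76 (-1.39 to -0.16). Ratios of Mmp16, Mmp19, Mmp23, Adam17 and the remaining ADAMTS genes lay between those of Adamts14 and Mmp28.

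For the inhibitors the size of the pulldown ratio rested on the scaling, and the sign turned only for Timp1. Timp3 had 36632 reads in the High and 39350 reads in the Low pulldown, a TMM ratio of 0.30 (0.28 to 0.32) but 0.00 by library totals. Timp2 had 14462 and 15417 reads, a ratio of 0.31 (0.28 to 0.34) but 0.01 by library totals. Timp1 had 3967 and 4886 reads, a ratio of 0.10 (0.04 to 0.16) but -0.19 by library totals. Mmp14 was likewise at 0.29 (0.22 to 0.35) under TMM and -0.01 by library totals, with 3576 and 3873 reads. Mmp2 had 1687 and 2104 reads and a ratio of 0.08 (-0.01 to 0.18). As shares of all pulldown reads, therefore, Timp2, Timp3 and Mmp14 were nearly equal in the High and Low pulldowns.

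Most members of the family took a smaller share of the reads in the pulldown than in whole-cell RNA, as did most genes. Compared by library totals, 21 of 35 measured members were more than 2-fold lower in the pulldown in both states with the whole interval, which is near the 59.7% of 12795 genes that did, and 0 were higher, against 1.56% of genes. The median log2 ratio of pulldown over whole-cell RNA was -2.18 in the High and -1.58 in the Low state for members, and -2.16 and -1.76 for all measured genes. These ratios depended on the scaling. TMM moved them by 1.84 in the High and 1.43 in the Low state, and then 7 members were lower and 3, Adam23, Adamts5 and Adamts9, higher, against 17.6% and 9.0% of genes. Within a state, the differences between members did not depend on the scaling.

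Mmp3 was hardly seen in the pulldown, with 2 reads in the High and 1 read in the Low pulldown, against 242 and 448 reads in High and Low whole-cell RNA. Its log2 ratio was -7.15 (-10.20 to -5.28) in the High and -9.17 (-14.47 to -6.68) in the Low state. Adam4, a testis gene, had 1 read in the High and 12 reads in the Low pulldown, against 127 and 113 reads in High and Low whole-cell RNA, and ratios of -7.22 (-12.53 to -4.71) and -3.59 (-4.59 to -2.73). It overlaps Cox16, a mitochondrial assembly gene with 52 and 49 reads in High and Low whole-cell RNA. Among the abundant genes Adam15 was lowest, at -4.01 (-4.21 to -3.81) and -4.02 (-4.20 to -3.85). Adamts10 was at -3.62 and -3.78, Mmp2 at -3.04 and -2.92 and Timp1 at -3.00 and -2.92 in the High and Low states. The other members more than 2-fold lower in both states were Adam8, Adam11, Adam19, Adam22, Adamts2, Adamts4, Adamts6, Adamts7, Adamts14, Mmp11, Mmp15, Mmp19, Mmp28, Timp2 and Timp3, from Adam8 at -5.96 (-9.02 to -4.07) in the High state to Timp3 at -1.31 (-1.32 to -1.29) in the High state. Adam4, Adam15, Adamts7, Adamts10, Mmp2, Mmp3 and Timp1 remained more than 2-fold lower in both states under TMM scaling.

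At the other end, Adamts5 had 3446 reads in the High and 4709 reads in the Low pulldown, against 1950 and 2067 reads in High and Low whole-cell RNA. Its ratio was 0.59 (0.51 to 0.67) in the High and 0.83 (0.75 to 0.90) in the Low state. Adam23 was at 0.22 (0.02 to 0.41) and 1.56 (1.39 to 1.74). Among the measured members, these had a larger share of reads in the pulldown than in whole-cell RNA of both states. Adamts12, which cleaves cartilage oligomeric matrix protein, was at -0.10 (-0.26 to 0.06) and -0.43 (-0.59 to -0.28), and Adamts9 at -0.25 (-0.54 to 0.04) and 0.16 (-0.11 to 0.43). The proteoglycanases thus ranged from Adamts5, above 0, to Adamts4, at -2.88 and -1.48 in the High and Low states.

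**Figure D3:**
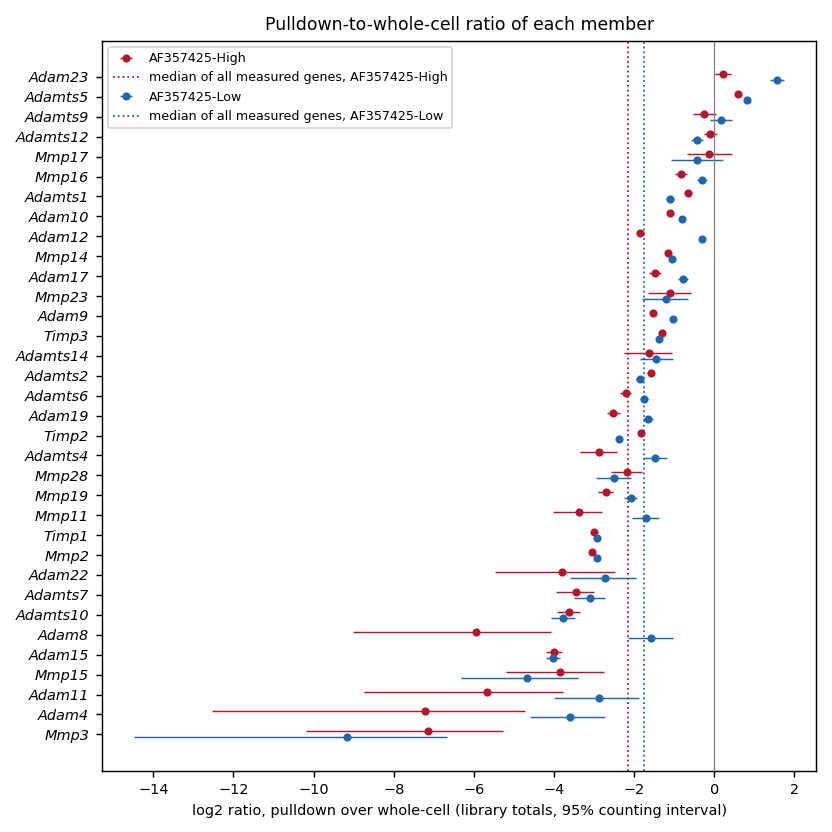
Log2 ratio of pulldown over whole-cell RNA by library totals for 34 members, in AF357425-High (red) and AF357425-Low (blue), with 95% counting intervals. Dotted lines are the medians of all measured genes, -2.16 in the High and -1.76 in the Low state. Mmp3 lies at the low end and Adamts5 and Adam23 at the high end. Adam32, with 0 reads in the High pulldown, is not drawn.

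Members with longer genes tended to have higher ratios. For members spanning less than 25 kb (n = 14) the median was -3.19 in the High and -2.30 in the Low state. From 25 to 100 kb (n = 11) it was -1.63 and -1.44, and beyond 100 kb (n = 9) it was -1.10 and -0.43. Over all genes the same bins had medians of -2.43 and -2.06, -1.85 and -1.39, and -1.76 and -1.29. The Spearman correlation of ratio and span was 0.41 in the High and 0.46 in the Low state over 34 members, and 0.19 and 0.22 over 11585 genes. All points share the same libraries, genes are not independent replicates, and the correlations are given as a description. Adamts1, which spans 9.29 kb and was at -0.66 and -1.10, and Adam22, which spans 296 kb and was at -3.79 and -2.73, lay far from this order.

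**Figure D4:**
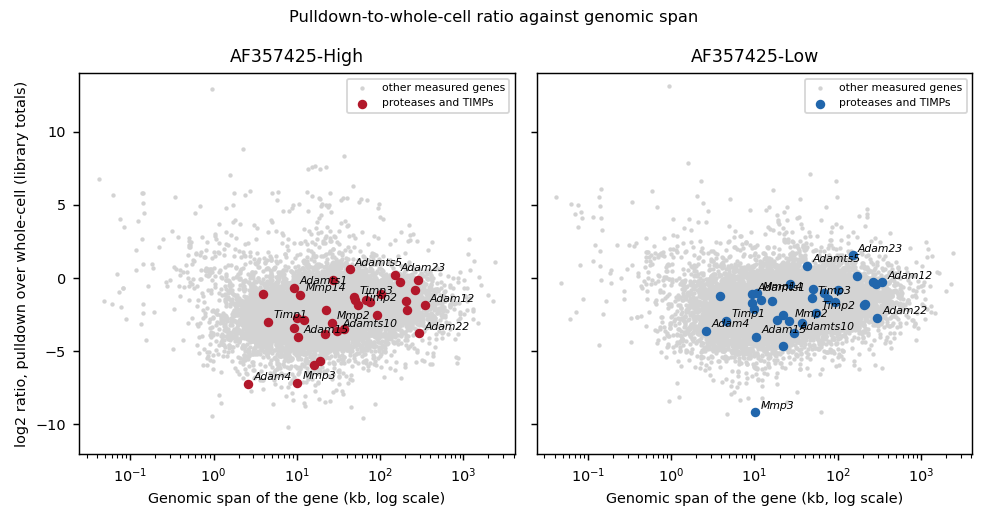
Log2 ratio of pulldown over whole-cell RNA against genomic span in kb on a log axis, by state. Coloured points are 34 members and grey points all measured genes with a span. Members under 25 kb have medians of -3.19 (High) and -2.30 (Low), and those beyond 100 kb -1.10 and -0.43.

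The pulldown-to-whole-cell ratio itself was compared between the states for the 29 members with at least 10 reads in each library. Changes are given with TMM scaling within each kind of library unless library totals are named. Adam12 was called lower in High, and it was the 1 member called, with a change of -1.20 (-1.32 to -1.08). By library totals its pulldown-to-whole-cell ratios were -1.86 in the High and -0.30 in the Low state, a change of -1.56. Among all 11356 genes compared, 1.66% were called lower and 2.65% higher, so 1 of 29 is near the background. By library totals Adam12, Adam23 and Mmp11 were lower, 3 of 29, against 5.09% of genes. The median change was 0.125 for members and 0.00 for all genes. Adamts15 had the lowest change, -1.54 (-3.12 to 0.04), from few reads and with an interval that included 0. Mmp11 at -1.31 (-1.97 to -0.65), Adamts4 at -1.04 (-1.56 to -0.51) and Adam23 at -0.99 (-1.25 to -0.73) came next. On the positive side were Timp2 at 0.90 (0.86 to 0.93), Adamts1 at 0.80 (0.66 to 0.95), Adamts12 at 0.69 (0.47 to 0.91) and Adamts2 at 0.63 (0.50 to 0.77). These values depended on the scaling: by library totals Timp2 was at 0.54 and Adamts2 at 0.27.

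Below 1 CPM in the pulldown, reads of the rare ADAMs were found mostly in the Low library. Of the 44 members under that level, 26 had pulldown reads, and 4 of these 26 were more than 2-fold lower in High with the whole interval, Adam5, Adam8, Adam21 and Adam32, and 0 were higher. Among 12160 such genes in all, 3.66% were lower and 4.64% higher. Adam32, a sperm-associated ADAM, had 0 reads in the High and 34 reads in the Low pulldown, so it was at least 8.58-fold lower when the 0 is set at 3 reads in that library. Adam8, an ADAM of leukocytes that other cells also make, had 2 and 40 reads, a log2 ratio of -3.92 (-7.02 to -1.97). Adam5, a testis gene, had 1 and 19 reads and a ratio of -3.85 (-9.22 to -1.19), and Adam21, also of testis, had 0 and 12 reads, at least 3.03-fold lower.

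Whole-cell RNA of the High and Low states held reads of the same genes in closer numbers: 51 and 39 reads for Adam32, 106 and 93 for Adam8, 13 and 23 for Adam5 and 7 and 13 for Adam21. The 12 ADAM genes under 1 CPM with pulldown reads summed to 18 reads in the High and 174 reads in the Low pulldown, a log2 ratio of -2.87 (-3.66 to -2.17), against 497 and 473 reads for all 20 ADAMs under that level in High and Low whole-cell RNA. Of these 12 genes, 5 had reads only in the Low pulldown and 0 only in the High pulldown. Over all 12160 such genes the shares were 32.1% and 17.5%, and their summed log2 ratio was -0.01. This sum was chosen after its values were seen. It was -3.17 by library totals and -2.67 without Adam8. Low Mmps summed to 27 reads in each pulldown, and low ADAMTS genes to 30 and 40 reads. The High pulldown had reads on 18993 genes and the Low pulldown on 20769, and the part of this difference in the result was not tested.

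**Figure D5:**
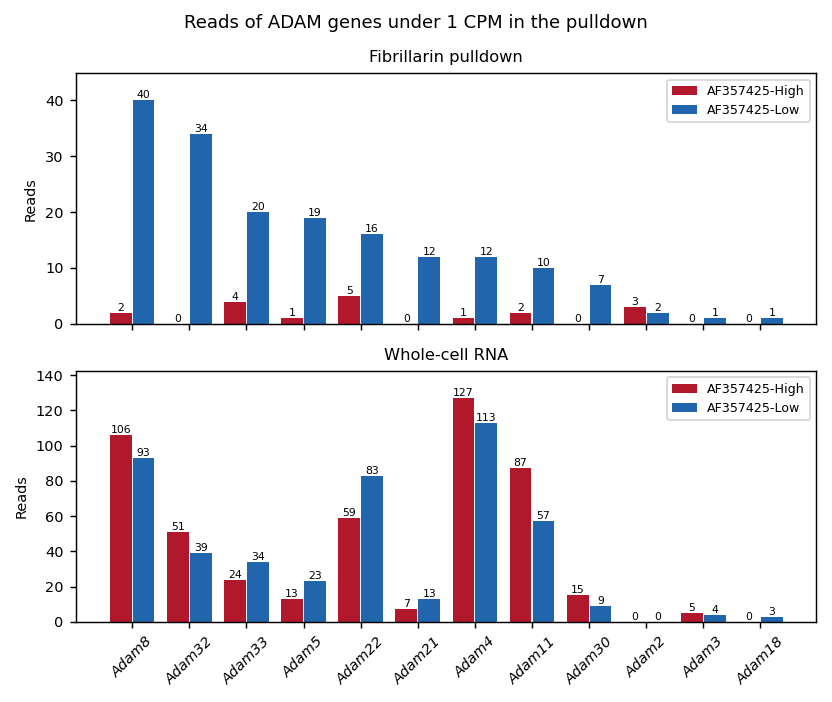
Reads of the 12 ADAM genes under 1 CPM in the pulldown, in the pulldowns (top) and in whole-cell RNA (bottom), AF357425-High in red and AF357425-Low in blue. Reads in the pulldown sum to 18 in High and 174 in Low. In whole-cell RNA neither state is higher throughout: Adam11 has 87 reads in High and 57 in Low, and Adam22 has 59 and 83.

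Adam5 and Adam32 lie with Adam3, Adam9 and Adam18 at chr8:24602246-25017040. Adam9, by far the most abundant of the 5, had 3934 reads in the High and 5703 reads in the Low pulldown, so the near absence of Adam5 and Adam32 reads from the High pulldown did not extend to it. Adam9 lies next to Adam32, from 24949611 to 25017040, and Adam32 spans 24836143 to 24948918.

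The partners of these enzymes were taken from a list of 50 activators, receptors, inhibitors and relatives. In the pulldown 38 were measured and 1 was called higher in High under TMM, against 3.43% of genes. Intervals lay above 0 for 20 and below 0 for 9, against 31.5% and 32.5% of genes, and the median log2 ratio was 0.18. In whole-cell RNA 40 were measured and 0 were beyond 2-fold, against 0.111% of genes upwards and 0.133% downwards. There 13 intervals lay above and 12 below 0, against 18% and 20.5% of genes, and the median was -0.005. In the pulldown by library totals 0 were called, against 2.22% of genes higher and 5.66% lower. Intervals then lay above 0 for 9 and below 0 for 15, against 16% and 53.3% of genes, and the median was -0.11. The gene called under TMM was Thbs1, thrombospondin 1, a matrix protein that activates TGF-beta, with 2581 CPM in the High and 1341 CPM in the Low pulldown, a ratio of 1.24 (1.22 to 1.26) that was 0.94 (0.93 to 0.96) by library totals and so no longer past 2-fold. Furin, which activates Mmp14 and most ADAMs by cleavage, was at 0.31 in the pulldown, or 0.02 by library totals, and -0.01 in whole-cell RNA. Reck, a membrane inhibitor of Mmps, was at 0.17 in the pulldown, or -0.12 by library totals, and 0.10 in whole-cell RNA.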

How the data were processed

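The deposited values are raw fragment counts per gene, given by the authors as separate tables for pulldown and whole-cell libraries. Per the submitters' processing notes, cutadapt 2.4, STAR 2.6.0c, HTSeq 0.9.1 and StringTie 1.3.4 were used with GRCm38. The sources used here give neither the annotation nor the strand setting. Ambiguous fragments were 9.38% and 8.54% of the High and Low pulldowns and 1.05% and 1.09% of High and Low whole-cell RNA. Symbols matched 55450 of 55536 gene IDs, and RefSeq positions matched all 73 members, of which 38 overlap another annotated gene.

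AF357425-High was set against AF357425-Low in the pulldown and in whole-cell RNA with TMM scaling (edgeR 4.0.16, R 4.3.3), and pulldown with whole-cell RNA by library totals. Ratios of 2 libraries have exact (Clopper-Pearson) 95% intervals. How this ratio differed between states was given, with a normal-approximation interval on the log scale, where all 4 libraries held 10 reads or more. A gene was called where its whole interval lay beyond 2-fold, in both states for pulldown against whole-cell RNA. Measured genes had a mean of 1 CPM or more across the libraries of the comparison, and 0 reads were taken to allow up to 3. PCR copies cannot be told from separate molecules in such counts, so all intervals and limits cover counting error only.

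The genes described in full were those called in any comparison, the Timps, the 12 most abundant in whole-cell RNA and the 4 highest and 4 lowest in each state comparison. The other genes named, and the low-count ADAMs, were chosen after their values were seen. The members and lists were chosen with earlier results of these data known. The computation was checked on simulated counts. Alternatives were library totals, DESeq2 1.42.0 size factors, totals without the 20 most abundant genes or without the mitochondrial ribosomal RNAs, other level filters, a 1.5-fold line and members that overlap no other gene. A planned search of protein motifs was not run, because protein sequences were not used here.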

Additional observations from a re-analysis of the deposited data

Results flagged for a closer look

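For 7 members the interval of the AF357425-High over AF357425-Low ratio lay on 1 side of 0 in the pulldown and on the other side in whole-cell RNA, each from 1 library a group, and the difference was not tested between replicates. These are 7 of 29 members with 10 reads or more in each library, against 11.9% of 11356 such genes. By library totals the intervals lay on opposite sides for 4 of 29, against 17.8% of genes. Of the 7, only Adam12 was still among them, and Adam9, Adam17 and Mmp19 were not in the 7. Under TMM, Adam12 was at -1.05 in the pulldown and 0.15 in whole-cell RNA, a difference of -1.20 on the log2 scale. The other members of the 7 ran the opposite way. The matrix inhibitors were at 0.31 and -0.59 for Timp2, 0.30 and -0.12 for Timp3, and 0.10 and -0.18 for Timp1, in the pulldown and in whole-cell RNA, with differences of 0.90, 0.42 and 0.28. Adamts1 was at 0.66 and -0.14 (difference 0.80), Adamts12 at 0.42 and -0.27 (0.69) and Adamts2 at 0.26 and -0.37 (0.63).

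By library totals the pulldown ratios of these genes were -1.35 for Adam12, 0.37 for Adamts1, 0.13 for Adamts12, 0.01 for Timp2, 0.00 for Timp3, -0.03 for Adamts2 and -0.19 for Timp1. Adamts2 and Timp1 were then below 0 in both kinds of library. Whether the scaling or the cells set these signs was not tested.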

How the results depend on the processing

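No paired analysis was possible because each group has 1 library, and its replicate number comes from accession order and pairs nothing. Leaving out a library was not possible either.

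In whole-cell RNA the counts past 2-fold were 0 under every scaling and filter tried. The 1.5-fold line gave 1 of 38 members lower, Mmp3, against 0.57% of genes. In the pulldown by library totals 4 of 29 members were lower in High (Adam12, Adam23, Adamts15 and Mmp11), against 5.66% of genes. DESeq2 size factors gave 1 (Mmp11), against 2.99%, and totals without the 20 most abundant genes 2 (Adam12 and Mmp11), against 3.46%. With no level filter 4 of 55 were lower (Adam5, Adam8, Adam21 and Adam32), against 3.30% of genes. At the 1.5-fold line 5 of 29 were lower (Adam12, Adam23, Adamts4, Adamts15 and Mmp11), against 7.85%. The pulldown median was -0.35 by library totals, -0.22 with no level filter and 0.14 for members overlapping no other gene.

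For pulldown against whole-cell RNA, TMM gave 3 members higher and 7 lower, with medians of -0.33 in High and -0.15 in Low, against 9.0% and 17.6% of genes and all-gene medians of -0.32 and -0.33. Totals without mt-Rnr1 and mt-Rnr2 gave 2 and 8, with medians of -0.73 and -0.26, against 6.24% and 23.2% of genes. Totals without the 20 most abundant genes gave 3 and 8, with medians of -0.56 and -0.21, against 7.32% and 20.6% of genes. With no level filter the medians were -2.81 in High and -1.36 in Low. At 5 CPM the High median was -1.85. Members overlapping no other gene gave 7 lower and a High median of -3.46. Among the members called lower by library totals, signs turned under TMM for Adamts14 (0.21), Adamts2 (0.25), Timp2 (0.013) and Timp3 (0.54) in High. In Low they turned for Timp3 (0.060). They also turned in High for Timp3 without mt-Rnr1 and mt-Rnr2 (0.14), and without the 20 most abundant genes for Adamts2 (0.023) and Timp3 (0.31). Signs of members not called turned as well under TMM, among them Adam10 (0.75 in High and 0.63 in Low) and Mmp14 (0.69 and 0.38).

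For the change between states, library totals gave 3 of 29 members lower, against 5.09% of genes, and a median of -0.23. The 1.5-fold line gave 3 lower, against 5.94% of genes, and 2 higher, against 7.0007% of genes. Over single members and the summed reads of the low-count ADAMs, 128 of 285 recomputed values were alike and 65 moved. A call was lost for 72 values and gained for 12. The sign turned for 8 values of members called in the main setting. Values that moved also included changes of sign, such as Timp1 in the pulldown, at 0.10 under TMM and -0.19 by library totals. The limits are the single library per group, the unknown strand setting for the 38 members that overlap another gene, and, below about 100 reads, counting error.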
